A study of Mus musculus with 13 samples.

Results

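Myc, Lef1, Tcf7, Sp5, Sox4, Sox9 and Prox1 are transcription factor genes that lie at the receiving end of Wnt signaling in the intestine. They were followed here across tumors and normal tissue of the mouse colorectum. They were found as the array probes whose gene name equals 1 of these 7 names. This gave 11 of the 55681 different probes on the array, and 7 of 36163 gene or transcript names. All 11 probes passed the filter on dim signals, as did 35214 probes in all.

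Every mouse was a CPC-Apc mouse (CDX2P-NLS Cre;Apc+/loxP), in which a Cre recombinase under a Cdx2 promoter deletes 1 Apc allele in Cdx2-expressing cells. The controls therefore carry the deletion too, and normal tissue came from the same kind of mouse. Tumors of microRNA mice (2 arrays) came from animals given miR-200c, miR-302 (-a, -b, -c and -d) and miR-369 (-3p and -5p), 25 µg of each. These were carried by super carbonate apatite particles and given through the tail vein 24 times, at 3 injections a week from 8 weeks of age. Tumors of control mice (7 arrays) are titled only as tumors of CPC-Apc mice and carry the code NC-P. The treatment text, which is the same for all samples, names a negative control microRNA as the alternative to the mixture, so that this is what control mice were given was read from the code and that text together. The remaining groups were normal tissue of microRNA mice (2 arrays) and normal tissue of control mice (2 arrays). The labels do not tie samples to animals, so several tumors may come from 1 mouse, and p-values measure only the spread between these samples. Each array measured 35 ng of total RNA of whole tissue, in which fewer cells of a type and less RNA per cell cannot be told apart.

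When Wnt ligands are absent, APC and its partners mark beta-catenin for destruction. When APC is lost, beta-catenin enters the nucleus and binds the DNA-binding proteins of the TCF/LEF family, to which LEF1 and TCF7 belong, and genes that carry their sites are transcribed. MYC drives growth and ribosome production and is a classical target of this pathway in intestinal crypts. SP5 is a zinc finger factor induced by Wnt that binds GC-rich DNA, SOX4 and SOX9 are HMG box proteins found in crypt progenitor cells, and PROX1 is a homeobox factor described in intestinal adenomas with active beta-catenin and in lymphatic endothelium.

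The sequences below are the probes of Myc, Lef1 and Sox4 that lie wholly or partly in coding sequence, shown because the Myc levels, and the comparison between probes of Lef1 and of Sox4, were read from them. In mm9 coordinates printed in the files, the Myc probe lies at chr15:61821417-61821476 on the plus strand. The Lef1 probe runs from chr3:130907851 to chr3:130926012 on the plus strand, a span of 18162 bases for 60 probe bases, so it crosses at least 1 intron. The Sox4 probe lies at chr13:29044482-29044541 on the minus strand.
Myc A_52_P108346: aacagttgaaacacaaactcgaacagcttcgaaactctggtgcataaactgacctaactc
Lef1 A_51_P420400: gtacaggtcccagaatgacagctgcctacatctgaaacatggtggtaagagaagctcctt
Sox4 A_55_P2131899: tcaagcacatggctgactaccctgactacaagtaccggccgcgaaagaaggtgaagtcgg

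The remaining probes were named by their positions only. Lef1 was also read at chr3:130926200-130926259 (plus), Tcf7 at chr11:52066114-52066173 and chr11:52066738-52066797 (minus), Sp5 at chr2:70315688-70315747 (plus), and Prox1 at chr1:191945785-191945844 (minus). Sox4 was also read at chr13:29040826-29040885 and chr13:29042856-29042915 (minus), and Sox9 at chr11:112648809-112648868 (plus, 10 spots per array).

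Promoter windows of RefSeq on GRCm38.p6, from 250 bases before to 50 bases after a transcription start, were found for 5 of the 7 genes (Lef1, Tcf7, Sp5, Sox4 and Prox1, 10 windows). They were searched on both strands for 4 TCF/LEF words, which begin with CTTTG and end in AA, AT, TA or TT and cannot overlap one another on 1 strand. Of the 10 windows, 2 held a word, against 16.9% of all 32851 windows of this length (18.9% of 27025 genes). The Sp5 window, chr2:70474673-70474972 on the plus strand, held 2 words, which begin 222 and 104 bases before the start. The window of the most downstream of 4 Lef1 starts, chr3:131156044-131156343 on the plus strand, held 1 word, which begins 147 bases before that start. Both are printed with the words in capitals. A word is a match of letters and no evidence of binding, and the windows without one say nothing about sites elsewhere.
Sp5 promoter window: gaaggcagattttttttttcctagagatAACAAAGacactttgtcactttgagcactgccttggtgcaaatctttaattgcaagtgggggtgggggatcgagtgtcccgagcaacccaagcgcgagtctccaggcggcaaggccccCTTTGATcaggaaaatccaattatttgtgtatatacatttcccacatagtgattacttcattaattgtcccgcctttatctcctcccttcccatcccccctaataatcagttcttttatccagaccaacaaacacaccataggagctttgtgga
Lef1 promoter window: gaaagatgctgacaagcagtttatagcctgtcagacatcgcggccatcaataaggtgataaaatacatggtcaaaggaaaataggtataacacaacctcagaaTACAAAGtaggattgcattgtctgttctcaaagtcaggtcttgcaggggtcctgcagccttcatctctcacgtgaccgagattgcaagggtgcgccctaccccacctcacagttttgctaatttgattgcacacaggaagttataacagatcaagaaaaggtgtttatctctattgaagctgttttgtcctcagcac

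Levels are given as the log2 of a probe's processed signal over the 75th percentile of its array, so a level describes 1 probe across arrays and is not comparable between genes. Each gene is given by its brightest probe. That percentile lay between 213.9 and 740 across the arrays, and between 50.7% and 57.0% of probes were well above background. The arrays lay on 2 slides, slide 1 with 8 arrays and slide 2 with 5. Both control normal arrays and control tumor 3 were on slide 2, and the other 6 control tumors on slide 1. Hoxb13, a homeobox gene of the distal colon that was picked out after its values were seen, was at 6.17 to 6.63 on 7 tumors. It was at -1.57 in control tumor 1 and at -4.53, not well above background, in control tumor 5. In normal tissue it was at -0.50 in the second microRNA array, against 5.65 in the first and 6.35 and 5.90 in control mice. Apc itself differed by 0.02 between tumors and normal tissue (limma adjusted p = 0.943), by a probe whose place relative to the deleted part is not given in the sources used here, so it checks nothing about the allele. Differences between groups, and the spread over control tumors, are also given without the 3 arrays of low Hoxb13, which were chosen after seeing the data.

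All 7 genes were higher in tumors than in normal tissue over both groups of mice (limma, Benjamini-Hochberg adjusted p under 0.05 over 25413 genes). In this comparison 31.4% of all genes were called, 11.7% higher and 19.7% lower. The median log2 difference of the 7 genes was 2.27, against -0.11 over all genes. Of the called genes, 37.2% were higher, a share that was 51.0% to 51.6% with median or quantile scaling or a percentile over detected probes, 95.5% without scaling and 21.1% after normexp background correction. The 7 differences were positive under each of these settings.

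Among the TCF/LEF factors, Lef1 was at 0.85 and 1.70 in tumors of microRNA mice and at 0.60, 1.61, 2.27, 2.69, 0.95, 3.73 and 3.09 in control tumors 1 to 7. Normal levels were -1.24 and -1.63 in microRNA mice and -1.05 and -1.41 in control mice. Every tumor lay above every normal sample. Among control tumors, 1 and 5 were the lowest and 6 and 7 the highest, and the first microRNA tumor lay between control tumors 1 and 5. The log2 difference was 3.11 (SE 0.53, limma adjusted p = 0.00206), an 8.62-fold higher signal.

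Tcf7, which encodes TCF1, was at -0.23 and -0.41 in tumors of microRNA mice and at -1.31, -0.59, 0.33, 0.45, -0.81, 1.07 and 0.91 in control tumors 1 to 7. In normal tissue it was at -2.06 and -2.22 in microRNA mice and at -1.55 and -2.08 in control mice. The groups did not overlap, and control tumor 1 came closest to normal tissue. The log2 difference was 1.82 (SE 0.41, limma adjusted p = 0.00771).

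Sp5, the zinc finger factor, was at 2.06 and 1.47 in tumors of microRNA mice and at 1.71, 1.28, 3.11, 3.06, 2.13, 4.43 and 3.49 in control tumors 1 to 7. In normal tissue it was at -0.08 and -1.0 in microRNA mice and at -2.55 and -1.57 in control mice. No tumor overlapped normal tissue, and both normal arrays of control mice lay below both of microRNA mice. The log2 difference was 3.83 (SE 0.62, limma adjusted p = 0.00168), or 14.2-fold.

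Prox1, the homeobox factor, was at 0.23 and 0.43 in tumors of microRNA mice and at -1.33, -0.41, 1.33, 0.35, -0.56, 2.00 and 1.27 in control tumors 1 to 7. Normal levels were -4.21 and -4.44 in microRNA mice and -4.68 and -3.95 in control mice. Only the last of these 4 normal arrays was well above background, while all 9 tumors were. The log2 difference was 4.68 (SE 0.54, limma adjusted p = 0.000241), or 25.6-fold, and 2.55 after normexp background correction.

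Myc, the growth regulator, was at 1.58 and 1.03 in tumors of microRNA mice and at 0.79, 1.30, 1.33, 1.71, 1.08, 2.12 and 2.04 in control tumors 1 to 7. Normal tissue stood at 0.05 and -0.03 in microRNA mice and at 0.09 and 0.19 in control mice. The 4 normal arrays lay within a narrow band (SD 0.09), below every tumor (SD 0.46). The log2 difference was 1.32 (SE 0.25, limma adjusted p = 0.00332), or 2.5-fold.

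Sox4, an HMG box factor, was at 5.00 and 4.21 in tumors of microRNA mice and at 3.31, 4.15, 5.50, 5.36, 4.04, 5.26 and 5.22 in control tumors 1 to 7. Normal tissue stood at 2.58 and 1.65 in microRNA mice and at 2.67 and 2.46 in control mice. Again no tumor overlapped normal tissue. The log2 difference was 2.27 (SE 0.41, limma adjusted p = 0.00297), or 4.81-fold.

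Sox9, the crypt and Paneth cell factor, was at 2.18 and 1.89 in tumors of microRNA mice and at 1.26, 1.53, 2.26, 2.32, 1.56, 1.88 and 2.07 in control tumors 1 to 7. Normal tissue stood at 1.00 and 0.55 in microRNA mice and at 1.62 and 1.15 in control mice. Control tumors 1, 2 and 5 lay below the first control normal array, so that, by the brightest probes, Sox9 alone of the 7 overlapped between tissues. Its log2 difference was 0.77 (SE 0.25, limma adjusted p = 0.0339), and 6.89% of all genes were higher in every tumor than in every normal sample, as the other 6 were. The Sox9 call was lost without any 1 of 6 arrays: both microRNA normal arrays (adjusted p = 0.0674 and 0.077), both microRNA tumors (0.0748 and 0.0705), control normal 2 (0.102) and control tumor 7 (0.0521).

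**Figure D1:**
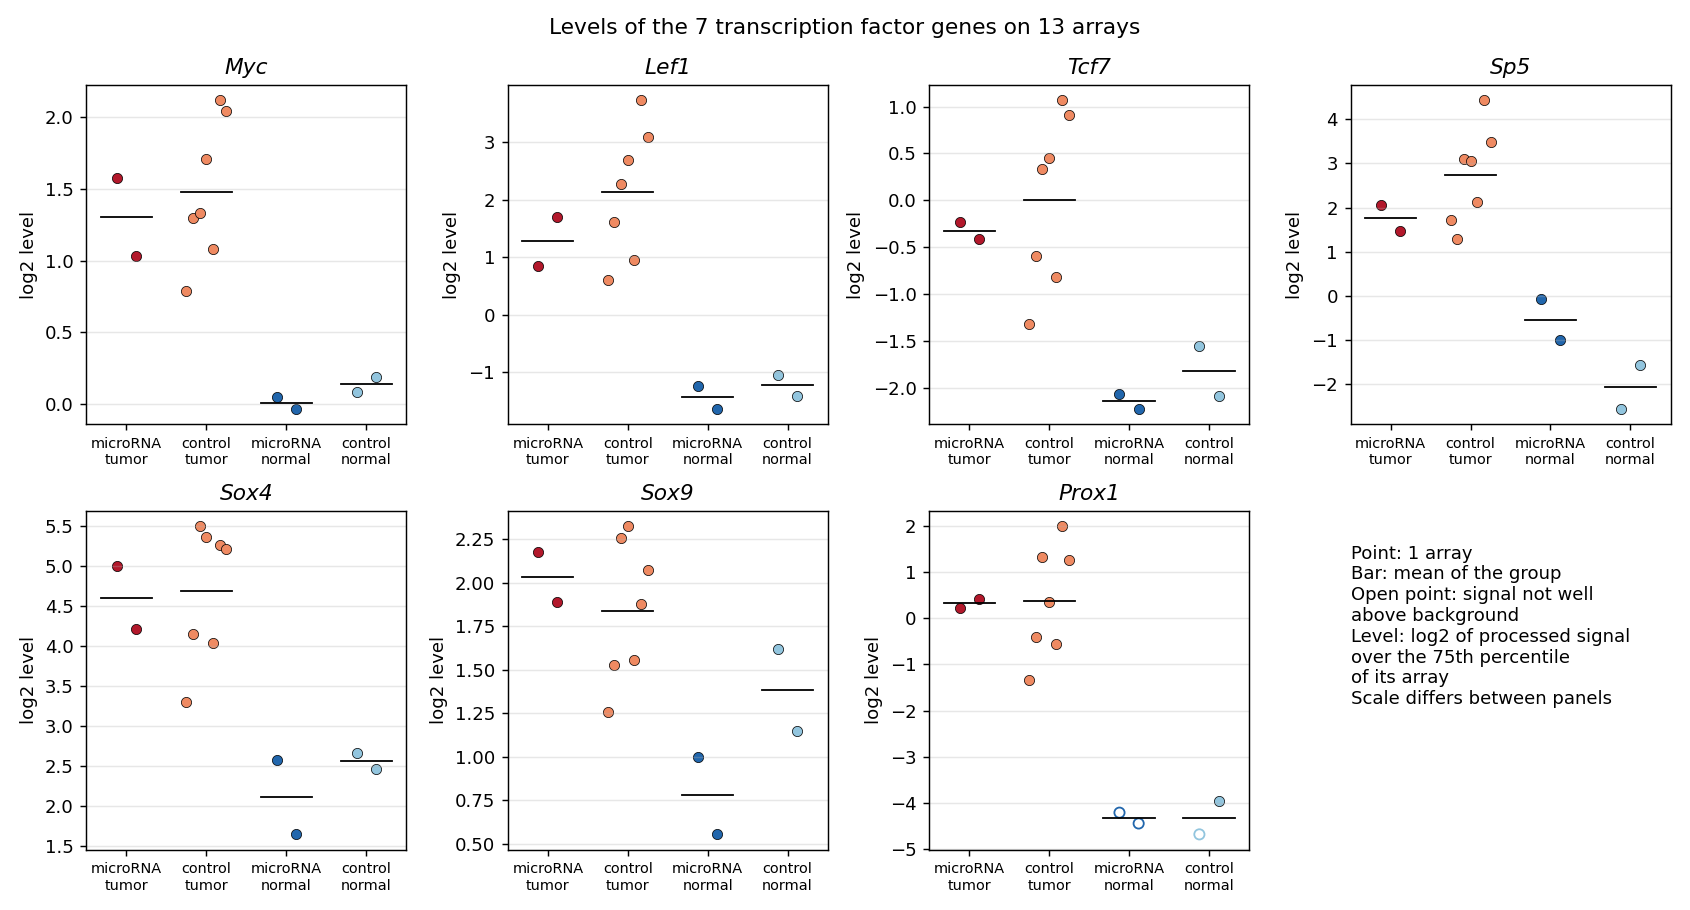
Log2 level of each gene (y axis, relative to the array's 75th percentile) on the 13 arrays, by group on the x axis; points are arrays, bars are group means and open points are signals not well above background. Tumor groups sit left of normal groups, and by the brightest probes shown only Sox9 overlaps between tissues.

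Slide was taken out as a block, and the tissues were also compared within each slide. With the slide as a block all 7 genes were called, at log2 differences of 3.01 for Lef1, 1.93 for Tcf7, 3.79 for Sp5, 4.89 for Prox1, 1.36 for Myc, 2.69 for Sox4 and 1.04 for Sox9. On slide 2 alone, with 2 tumors and 3 normal arrays, they were 2.89, 2.01, 3.87, 5.13, 1.34, 2.71 and 1.00 in the same order, and all but Sox9 (limma adjusted p = 0.0567) were called. On slide 1 alone they were 3.33, 1.81, 2.48, 4.87, 1.06, 2.56 and 1.33. The 1 normal array there is microRNA normal 2, which is also an array of low Hoxb13. With treatment in the model, these values are microRNA tumor 2 minus that array, and the control tumors on slide 1 add nothing to them. With 1 normal array, whether a gene was called there says little about it. All of these differences were positive. Without the 3 arrays of low Hoxb13 all 7 genes were called, with log2 differences of 0.76 for Sox9 to 5.00 for Prox1. Tcf7 lost its call without the pair of arrays that carry Xist signal, control normal 2 and control tumor 3 (log2 1.67, adjusted p = 0.0505), as did Sox9 (log2 0.74, adjusted p = 0.11).

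In microRNA mice alone (2 tumors against 2 normal arrays), Prox1 was called higher and the other 6 genes were not, where 3.12% of all genes were called, 1.39% higher and 1.73% lower. Prox1 was 25.2-fold higher (log2 4.66, SE 0.90, limma adjusted p = 0.0195). Neither normal array was well above background, so this fold depends on how background was handled and is not a lower limit. After normexp background correction the difference was 2.55 and Prox1 was not called (adjusted p = 0.0527). The other differences were 2.71 for Lef1, 1.82 for Tcf7, 2.31 for Sp5, 1.30 for Myc, 2.49 for Sox4 and 1.25 for Sox9, with adjusted p from 0.0725 to 0.154. Both tumors lay above both normal arrays for all 7 genes, as they did for 20.4% of all genes, while 33.2% were lower in both tumors. The Prox1 call was lost when any of these 4 arrays was left out (adjusted p from 0.0852 to 0.132). Without the 3 arrays of low Hoxb13, which leaves 1 normal array here, the Prox1 difference was 4.54. The number of the 7 genes called ran from 0 to 7 over the settings tried. All 7 were called without scaling, where 3073 genes were called in all, against 794 in the main fit.

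In control mice alone (7 tumors against 2 normal arrays), 6 of the 7 genes were called higher, where 19.1% of all genes were called, 8.18% higher and 10.9% lower. The differences were 3.36 for Lef1 (SE 0.69), 1.82 for Tcf7 (SE 0.55), 4.81 for Sp5 (SE 0.69), 4.69 for Prox1 (SE 0.72), 1.34 for Myc (SE 0.33) and 2.12 for Sox4 (SE 0.55), with limma adjusted p from 0.00192 for Sp5 to 0.0407 for Tcf7. Sox9 differed by 0.46 (SE 0.30, adjusted p = 0.277). The count was 1 without control normal 1, 2 without control normal 2, and 3 with the slide as a block, and without the arrays of low Hoxb13 it was 6. Sp5 was called under all 30 alternatives of this comparison, with a highest adjusted p of 0.0491.

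The probes of genes with more than 1 probe were compared with each other. The junction probe of Lef1 was at -0.64 and 0.22 in tumors of microRNA mice, -1.11 to 2.13 in control tumors with a median of 0.96, and -2.89 to -1.85 in the 4 normal arrays. Its log2 difference was 2.62 (SE 0.53, limma adjusted p = 0.00482 over probes), close to the 3.11 of the other Lef1 probe. The coding probe of Sox4 gave 2.81 and the remaining Sox4 probes 2.27 and 2.25, all called. The dimmer Tcf7 probe (A_55_P2109633) gave 1.94 (SE 0.72, adjusted p = 0.0581, at least 3.8-fold), was well above background in 8 of 9 tumors and in none of the 4 normal arrays, and was not called. By this probe the tissues overlapped, since control tumor 1 was at -6.25, not well above background, and normal arrays were at -5.99 to -4.25. For each of the 3 genes the probes gave the same direction.

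**Figure D2:**
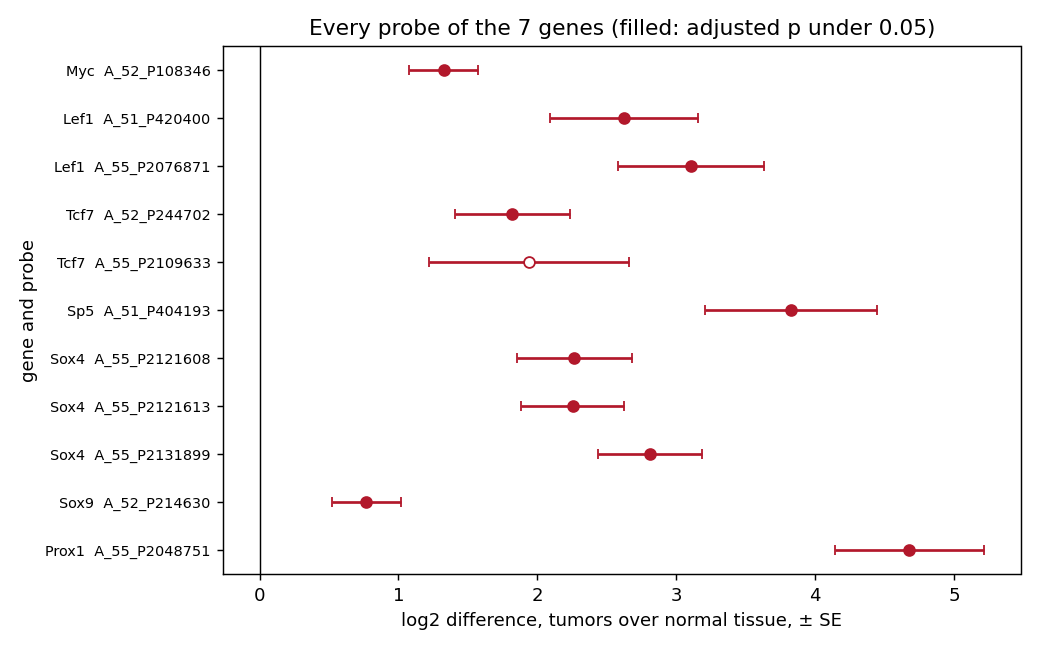
Log2 difference between tumors and normal tissue over both groups of mice (x axis, bars are SE) for each of the 11 probes (y axis); filled points have a limma adjusted p under 0.05. All lie above 0, from 0.77 for Sox9 to 4.68 for Prox1, and the dimmer Tcf7 probe is open.

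The injected microRNAs were examined within each tissue. In tumors (2 microRNA against 7 control arrays) none of the 7 genes was called by limma, and none had an unadjusted p under 0.05, where 0.00393% of all genes (1 gene) were called. All groups overlapped, where 1.23% of all genes were higher and 1.27% lower on both microRNA arrays than on every control array. Tumors of microRNA mice fell inside the range of control tumors for every gene. Sp5 averaged 1.77 ± 0.41 (SD, n = 2) in tumors of microRNA mice and 2.74 ± 1.10 (SD, n = 7) in control tumors, a log2 difference of -0.98 (SE 0.69). Lef1 averaged 1.27 ± 0.60 in tumors of microRNA mice and 2.13 ± 1.14 in control tumors, a difference of -0.86 (SE 0.69). The other differences ran from -0.33 for Tcf7 to 0.19 for Sox9, every adjusted p was 0.9996, and for Myc, Sox4 and Prox1 the sign turned when single arrays were left out. With the replicate block the sign turned for Sp5 (0.27) and Lef1 (0.17) too. Without the arrays of low Hoxb13 none was called, at -1.31 for Sp5 and -1.40 for Lef1. With standard errors of 0.30 to 0.72, only differences much larger than these could have been called with 2 arrays.

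In normal tissue (2 microRNA against 2 control arrays) again none was called by limma and none had an unadjusted p under 0.05, where 0.531% of all genes were called, 0.283% higher and 0.248% lower. Sp5 was at -0.08 and -1.0 in microRNA mice and at -2.55 and -1.57 in control mice, a log2 difference of 1.52 (SE 0.86, adjusted p = 0.959). Both microRNA arrays lay above both control arrays for Sp5, as for 22.4% of all genes. They lay below both control arrays for Myc (difference -0.13) and Sox9 (difference -0.61), as for 18.2% of all genes. Without the arrays of low Hoxb13, which leaves 1 microRNA array, none was called and the differences were 1.98 for Sp5 and -0.38 for Sox9. The remaining 4 differences over all arrays ran from -0.45 for Sox4 to -0.01 for Prox1, and those of Lef1, Tcf7 and Sox4 overlapped between the groups, as did Prox1 near background.

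The tumor effect in microRNA mice minus that in control mice was tested directly as an interaction. None of the 7 genes was called by limma, where 0.279% of all genes were (0.102% above 0 and 0.177% below), and Sp5 was the only one with an unadjusted p under 0.05. Its tumor effect was 2.31 in microRNA mice and 4.81 in control mice, a difference of -2.50 (SE 1.10, unadjusted p = 0.0433, adjusted p = 0.798). Sox9 had the largest opposite value, 0.80 (SE 0.48, adjusted p = 0.809), with tumor effects of 1.25 in microRNA mice and 0.46 in control mice. Without the arrays of low Hoxb13 these differences were -3.29 for Sp5 and 0.40 for Sox9, and no gene of the 7 was called. Over all arrays, the differences of the other 5 genes lay between -0.65 (Lef1) and 0.36 (Sox4). Group means followed one order for Lef1, Tcf7, Myc and Sox4, from control tumors through tumors of microRNA mice and normal tissue of control mice to normal tissue of microRNA mice. For Sp5 the 2 normal groups stood the other way round, and for Sox9 the 2 tumor groups did. For Prox1 the order was that of the first 4 genes, with normal means of -4.33 in microRNA mice and -4.31 in control mice. The neighbours within 1 tissue did not pass the test for any gene.

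**Figure D3:**
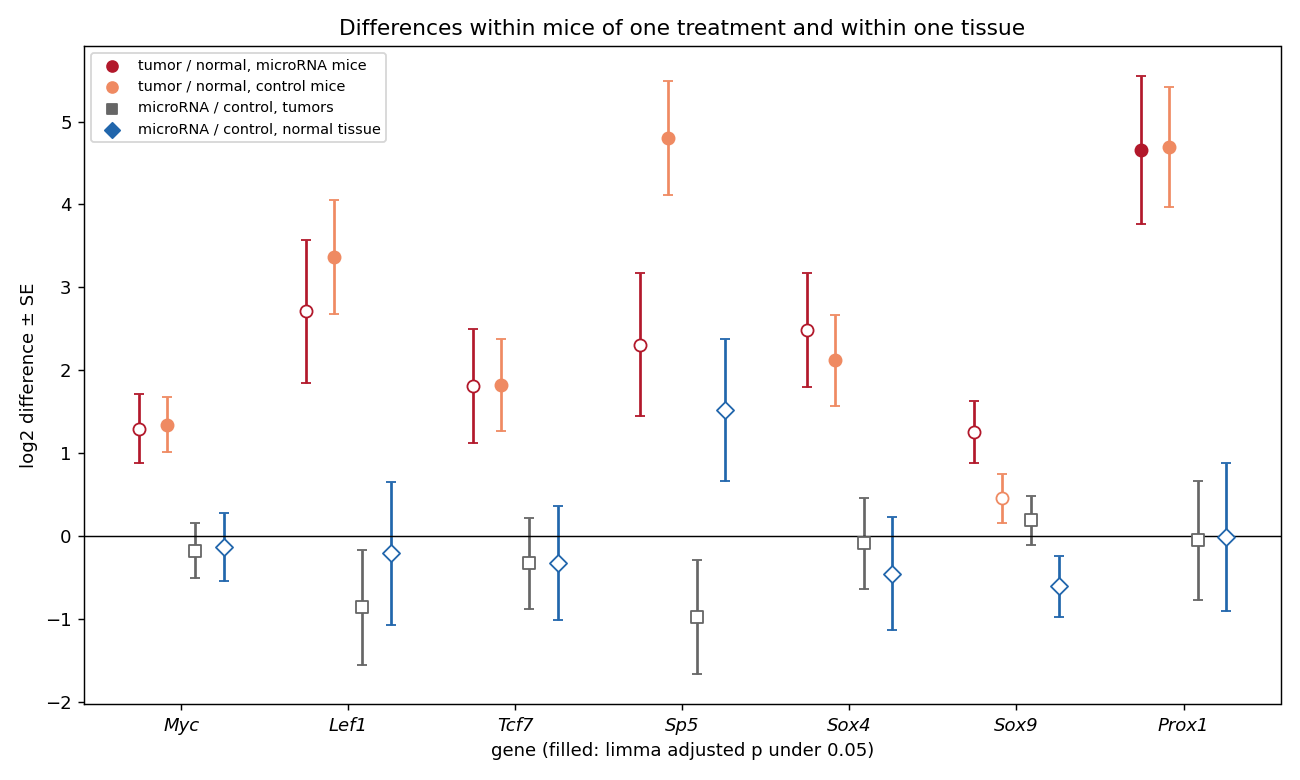
Log2 differences with SE (y axis) for each gene (x axis): tumor over normal tissue in microRNA mice and in control mice, and microRNA over control within tumors and within normal tissue; filled symbols have a limma adjusted p under 0.05. The tumor differences lie above 0 for all 7 genes and the microRNA differences within a tissue are all open.

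The 7 control tumors differed from each other by much more in some of these genes than in others. The fold range from the lowest to the highest control tumor was 10.0 for Prox1, 8.87 for Sp5, 8.72 for Lef1, 5.20 for Tcf7, 4.57 for Sox4, 2.51 for Myc and 2.09 for Sox9. Single tumors set part of these ranges. Without control tumor 6 the range was 6.31 for Prox1, 4.62 for Sp5 and 5.62 for Lef1, and without control tumor 1 it was 5.86 for Prox1 and 2.75 for Sox4. Without control tumors 1 and 5, those of low Hoxb13, it was 5.30 for Prox1, 8.87 for Sp5, 4.35 for Lef1, 3.16 for Tcf7, 2.55 for Sox4, 1.76 for Myc and 1.74 for Sox9. The SD over control tumors was 1.21 for Prox1, 1.14 for Lef1, 1.10 for Sp5, 0.91 for Tcf7, 0.85 for Sox4, 0.49 for Myc and 0.40 for Sox9, against a median of 0.42 over all genes. The SD of Prox1 was above that of 94.1% of all genes, that of Lef1 above 92.9% and that of Sp5 above 92.1%, while Sox9 stood at 47.6%.

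The same tumors were high or low for most of the genes. Control tumor 1 was the lowest of the 7 for 6 genes and the second lowest for Sp5, where control tumor 2 was lowest. Control tumor 5 was among the 2 lowest for 5 genes. Control tumor 6 was the highest for Myc, Lef1, Tcf7, Sp5 and Prox1, while control tumor 3 was the highest for Sox4 and control tumor 4 for Sox9. Myc, Lef1 and Tcf7 ranked the 7 tumors in the same order. For each of the 7 genes, control tumors 1, 2 and 5 lay below all other control tumors. Of these low tumors, 1 and 5 are also the tumors of low Hoxb13. Control tumor 2 is not, since its Hoxb13 level of 6.63 was the highest on any array.

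All 21 pairs of genes were positively correlated across the 7 control tumors, with Pearson r from 0.65 (Myc with Sox9) to 0.98 (Lef1 with Tcf7) and a median of 0.89. By a two-sided exact permutation test over the 5040 pairings, 14 pairs passed by Pearson r and 11 by Spearman rho after Benjamini-Hochberg adjustment over the 21 pairs. For Lef1 and Tcf7 r was 0.98 (exact permutation p = 0.000198, the smallest these arrays can give, adjusted p = 0.00417) and rho was 1 (exact permutation p = 0.000397). For Sox4 and Sox9 r was 0.95 (exact permutation p = 0.00179, adjusted 0.00937) and rho was 0.89 (exact permutation p = 0.0123). For Sp5 and Prox1 r was 0.91 (exact permutation p = 0.00714, adjusted 0.0192) and rho was 0.86 (exact permutation p = 0.0238). After leaving out the 2 tumors farthest from the median of the first gene, r over the remaining 5 ran from 0.50 to 0.98 over the 21 pairs, at 0.98, 0.90 and 0.96 for these 3 pairs. The number of pairs passing by Pearson r was 8 without control tumor 1, 5 without control tumor 6 and 6 without control tumor 7, against 10 to 15 when any other tumor was left out. Without both tumors of low Hoxb13 only 5 arrays remain, and the pairs were not tested. Since tumors may share an animal, and arrays share a scaling, these p-values describe these 7 arrays. Control tumors 4 to 7 carry the same file number, as do control tumors 1 and 2, while the permutations treated the 7 as separate units.

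**Figure D4:**
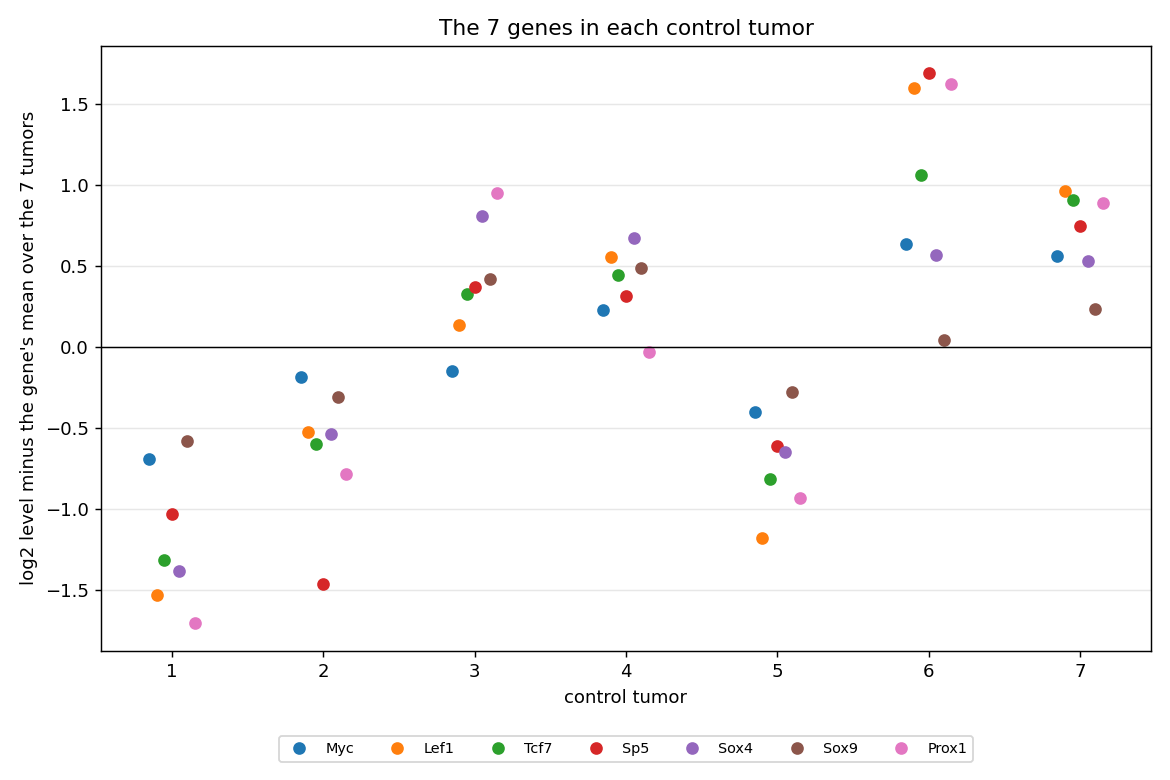
Level of each gene in the 7 control tumors (x axis) as a log2 difference from that gene's mean over them (y axis). Tumors 1, 2 and 5 lie below 0 for all 7 genes, and tumors 6 and 7 above 0 for all 7.

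Levels of cell type markers also varied over these tumors. The mean log2 level of 14 epithelial markers was 6.41 and 5.96 in control tumors 1 and 5 and 4.11 to 5.55 in the other 5. That of 9 smooth muscle markers was 3.43 and 3.79 in control tumors 1 and 2 and 1.11 to 2.06 in the other 5, and that of 6 adipocyte markers was -1.07 in control tumor 1 and -4.51 to -3.00 elsewhere. Proliferation markers (14 genes) were at 1.66 to 1.89 in control tumors 1, 2 and 5 and at 2.24 to 2.52 in the other 4. The part of these cell types in the levels of the 7 genes was not tested.

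The genes whose levels over the 9 tumors were most like each of the 7 are named as a description, without a test, with Pearson r over 16634 genes that have a symbol. Tcf7 was closest to Stra6 (r = 0.99), Cavin4 (0.99) and Rnf43 (0.99), the last a membrane ubiquitin ligase that removes Wnt receptors from the cell surface. Prox1 was closest to Osbpl8 (0.99), to Znrf3 (0.99), a ligase of the same kind, and to Zfp566 (0.99). Lef1 was closest to Cbx6 (0.99), Echdc2 (0.98) and Rest (0.98), and Sp5 to Ptpre (0.98), Slc20a2 (0.98) and Snx24 (0.98). Sox4 was closest to Stmn1 (0.99), which encodes a microtubule regulator, Dyrk3 (0.98) and Ilf2 (0.98). Sox9 was closest to Rbm17 (0.97), Uck2 (0.97) and Dnaaf2 (0.96), and Myc to Nup210l (0.97), Ctcf (0.96) and Frmpd1 (0.96). Between 89 genes (Sox9) and 451 genes (Tcf7) had r over 0.9, so many genes followed the same tumors.

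Other genes of the pathway were read from lists, in the comparison of tumors with normal tissue over both groups of mice. Over all genes 11.7% were called higher there and 19.7% lower. Of 24 measured Wnt feedback and target genes, 16 rose and 2 fell in tumors (median log2 1.53, against -0.11 over all genes). Among the risers were the secreted Wnt inhibitors Dkk2 (5.22) and Wif1 (5.34), the urokinase receptor Plaur (2.17) and the protease Mmp7 (5.08), with limma adjusted p from 4.28e-05 to 0.00037. Tcn2 (-1.09) and Nkd2 (-0.62) fell. The feedback regulator Axin2 rose by 2.51 (SE 0.50) and the crypt stem cell receptor Lgr5 by 2.52 (SE 0.38). Axin2 was at 0.93 and 1.03 in tumors of microRNA mice and at 0.09, 1.07, 1.76, 2.24, 0.41, 2.87 and 2.39 in control tumors 1 to 7. Among control tumors, as for Lef1, Tcf7 and Myc, 1 and 5 were the lowest and 6 and 7 the highest. Axin2 was at -0.93 and -0.66 in normal tissue of microRNA mice and at -1.31 and -1.56 in that of control mice.

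Of 16 measured nuclear partners of beta-catenin, none rose and 2 fell (median -0.03). Over all genes 11.7% were called higher and 19.7% lower, so the 2 do not set these partners apart. The 2 that fell were Tcf7l2 (-1.38, limma adjusted p = 0.0019), the TCF/LEF family member of intestinal crypts, and Aes (-1.06, adjusted p = 0.0042), a short member of the Groucho family. Ctnnb1, which encodes beta-catenin, differed by 0.38 (SE 0.23, adjusted p = 0.222). Without scaling between arrays, 11 of these 16 genes were called higher, a setting in which the median over all genes was 0.89. There 15262 of all 25413 genes were called, 95.5% of them higher. After normexp or with quantile scaling 1 was called higher, and 2 were without microRNA tumor 1.

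Of 20 MYC target genes, most of them in ribosome production, 13 rose and none fell (median 0.75). Nop56 rose by 1.02, Ddx18 by 0.84, Gnl3 by 1.15 and Rrs1 by 0.90 (limma adjusted p from 0.00561 to 0.0138). The count was 6 without microRNA normal 1, 5 without control normal 1 and 4 without control normal 2. The median was positive in each, and also on slide 1 alone, which holds 1 normal array. Of 9 measured partners and competitors of MYC, 3 rose and 3 fell, where 11.7% of all genes were called higher and 19.7% lower. Max, the common dimer partner (-0.71), and Mxd1, a repressor that competes for it (-1.52), fell. Mga (0.62) and Mycl1 (1.64) rose. Mlx (-0.74) and Mycn (1.51), named after their values were seen, complete these counts. Of the 9, none was called higher without control normal 2, and 1 was without control normal 1 or microRNA tumor 2.

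Of 19 measured other SOX, SP and KLF factors, 4 rose and 4 fell (median -0.17). Over all genes 11.7% were called higher and 19.7% lower, so the share of factors that fell was near that of all genes. Sox17, an endoderm and endothelial factor, rose by 3.77 (limma adjusted p = 0.00561), and Sox5 (-1.49), Sox15 (-1.03, not well above background in any tumor) and the glial factor Sox10 (-1.27) fell. Sox18 (1.10), Sox21 (2.18), Sp6 (1.93, not well above background in normal tissue) and Klf4 (-1.49), named after their values were seen, complete these counts. Of 14 measured proliferation markers, 11 rose and none fell (median 0.83), among them Bub1b (1.27), Top2a (1.36) and Mki67 (0.60), and 6 were called without control normal 1 and 4 without control normal 2. Without scaling, Max and Mxd1 were not called lower, and 10 of the 19 SOX, SP and KLF factors were called higher and none lower. In that setting 15262 of all 25413 genes were called, 95.5% of them higher, so these counts do not set the factors apart. In microRNA against control tumors no gene of these 6 lists was called.

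**Figure D5:**
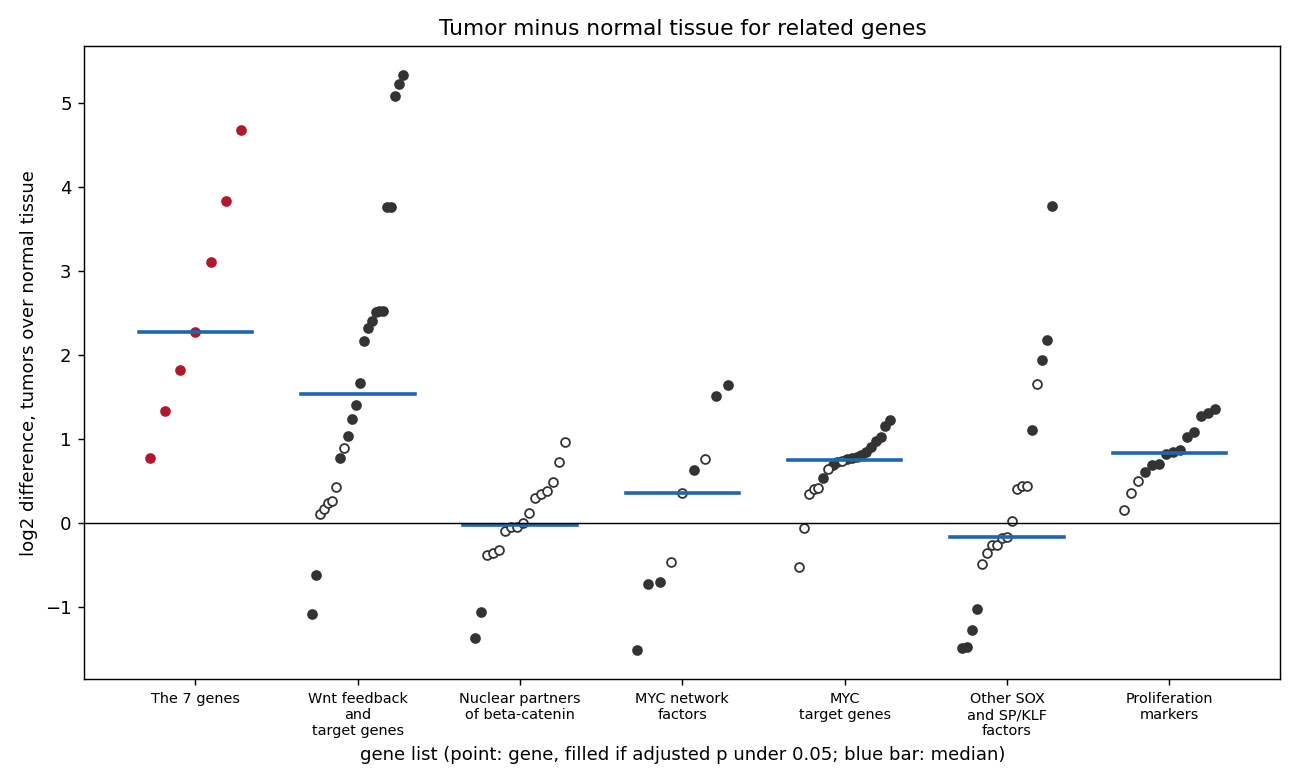
Log2 difference between tumors and normal tissue over both groups of mice (y axis) for the 7 genes and 6 lists (x axis); each point is a gene, filled where the limma adjusted p is under 0.05, and blue bars are medians. The median is 2.27 for the 7 genes, 1.53 for Wnt feedback and target genes and -0.03 for nuclear partners of beta-catenin.

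Several of the 7 genes are also expressed in other cells of the gut, so their markers were read in the same comparison. Over all genes 11.7% were called higher there and 19.7% lower. Lef1 and Tcf7 are known in T cells. Of 13 T cell markers 8 fell and none rose in tumors, among them Cd3d (-1.90), Cd3g (-2.18) and Cd3e (-0.91), and their summed level (log2) was 3.58 to 4.30 in tumors and 4.06 to 4.30 in normal tissue. A sum is set mostly by the brightest genes. The mean level of the 13 did not overlap, at -1.85 to -0.96 in tumors and -0.61 to -0.32 in normal tissue. Cd8b1 was not well above background in any tumor. Without control normal 1, 5 of the 13 were called lower, and without scaling 4 were lower and 3 higher. PROX1 marks lymphatic endothelium and enteroendocrine cells. Of 9 measured markers of lymphatic and blood endothelium Pdpn rose (1.38), Lyve1 fell (-1.02) and 7 were not called. A second gene was called higher without control normal 1, control tumor 1 or control tumor 3, and a second called lower without microRNA normal 2. Flt4 was well above background in 2 of 9 tumors and in none of the 4 normal arrays, and the summed level of the 9 was 4.02 to 4.62 in tumors and 3.44 to 4.38 in normal tissue. Of 10 measured enteroendocrine markers 6 fell and none rose, among them Chga (-2.03) and Sst (-3.29), with a summed level of 3.71 to 5.91 in tumors and 6.05 to 7.38 in normal tissue. Without control normal 2, 2 of these 10 were called. SOX9 is known in Paneth cells. Of 5 measured Paneth cell markers Mmp7 (5.08) and Pla2g2a (3.75) rose, and Mptx1 (-5.43) fell but was not called without either control normal array. Mmp7 is the same gene that was counted above among the Wnt feedback and target genes. Their summed level was 6.67 to 8.24 in tumors and 7.17 to 8.53 in normal tissue. The groups of mice differed. In control mice 4 of the 5 rose and 1 fell (median 4.42), where 8.18% of all genes were called higher and 10.9% lower. In microRNA mice 2 of the 5 rose and none fell (median -0.05), where 1.39% of all genes were called higher and 1.73% lower. In normal tissue 2 of the 5 were called higher in microRNA than in control mice, where 0.531% of all genes were called. Mean levels there were 4.90 and 3.67 in microRNA mice and 1.16 and 1.56 in control mice.

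Epithelial markers, which hold for the labelled tissue, were present on all arrays. Of 14, 9 fell and none rose in tumors, where 11.7% of all genes were called higher and 19.7% lower. Among the 9 were the colonocyte transporter Slc26a3 (-4.08) and Car1 (-4.27), while Epcam, not among them, differed by -0.28 (limma adjusted p = 0.32). Their summed level was 9.53 to 10.96 in tumors and 10.68 to 11.45 in normal tissue, and none of the 14 was called without control normal 2, 3 without microRNA normal 1 and 4 without microRNA tumor 2. Without scaling, 2 of the 14 were called lower and 3 higher. The part of these cell types in the differences of the 7 genes was not tested.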

How the data were processed

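Tumor and normal colorectal tissue of 4 groups of mice was measured on 13 arrays read in 1 colour. The authors deposited fluorescence intensity on a linear scale from Feature Extraction 10.7.3.1, per the file headers, background-subtracted but not scaled between arrays. Mean and local background intensity, also deposited, served 1 alternative. Control spots (3671) and spots with outlier flags were left out, and the other 59305 spots of 55681 probes were used. The log2 processed signal was reduced by that of the array's 75th percentile. Probes well above background on at least 2 arrays were kept (35214), and the brightest over all arrays stood for each gene or transcript (25413), a filter that can favour genes high in the larger group. Arrays give no counts, so their number limits the precision.

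Differences were tested with limma 3.58.1 (lmFit, eBayes) in R 4.3.3 with data.table (version 1.17.8), on all arrays with 1 shared spread and Benjamini-Hochberg adjustment over all genes. Tissue and treatment as additive terms gave the comparison over both groups of mice, and 4 group means the rest. Pairs were tested in Python 3.11.15 with scipy 1.17.1 and pandas 2.3.3, and figures drawn with matplotlib 3.10.9. The fit was tried on simulated arrays with independent errors. That simulation held no shared animals, slide effect or background limit, so it says nothing about these in the data. "At least" marks a fold against a group with no array well above background. Levels of that group were raised, where lower, to the dimmest probe well above background on their array.

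The 7 genes, the 18 lists and the tests were chosen with earlier results of these data known. The genes named are the 7 with all their probes, the 3 most correlated genes of each over the 9 tumors, up to 4 genes of each list with the smallest p (for marker lists also its first 2), and Apc, Axin2, Lgr5, Ctnnb1, Cdkn1a and Mki67. Hoxb13 and Xist were picked after their values were seen, to mark arrays. Alternatives covered background correction, scaling, filters, the probe of a gene, the model, the slide, blocks and arrays left out.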

Additional observations from a re-analysis of the deposited data

How the results depend on the processing

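All 7 genes stayed above 0 in tumors over normal tissue in every alternative run (30 over both groups of mice, 30 in control mice and 31 in microRNA mice). Over both groups 6 or 7 of the 7 genes were called when any 1 array was left out. Slide 1 alone holds 1 normal array, so a count of genes called there says little about these genes. In control mice 6 were called, but 3 with the slide as a block, 2 without the pair of arrays with Xist signal, and 1 to 6 when 1 array was left out. In microRNA mice 1 was called, but 2 after normexp, 7 without scaling, 3 with only the groups compared, 3 with the slide as a block, 0 on slide 1 alone, 5 with the file number as a random block, and 0 to 2 when 1 array was left out (0 without either tumor or either normal array of these mice, 2 without control tumor 1). Counts over all genes moved too, though not always in step with these. In microRNA mice 794 genes were called in all, but 2512 after normexp (18.4% of them higher) and 3073 without scaling (94.7% of them higher). There were 937 with only the groups compared, 1638 with the slide as a block and 2306 with the file number as a random block. In control mice 4856 were called in all, and 2322 with the slide as a block. Pairs called across control tumors numbered 5 to 15 when 1 tumor was left out. No alternative called any of the 7 genes between microRNA and control mice, and the sign of differences turned for genes given below, the largest differences in tumors (Sp5 and Lef1) included under the replicate block. Genes called in all ran from 3838 to 8648 over both groups of mice, 425 to 6706 in control mice and 78 to 1160 in microRNA mice when 1 array was left out.

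Replicate numbers in the labels were not taken to pair the samples, since not every pair deviated together: deviations from group means of tumors and normal tissue of the same number correlated at 0.42 and 0.42 in microRNA mice, where with 2 arrays a group both pairs give 1 value, and at -0.14 and -0.09 in control mice. File numbers are also shared between tissues. Control normal 2 and control tumor 3, the only arrays with Xist well above background, share 1 file number. In microRNA mice, the tumor and normal arrays of each replicate number do too. These arrays may thus come from the same animal, which no label states, and the main fit treated them as independent. With the replicate block, 2 genes were called in control mice and 4 in microRNA mice. MicroRNA over control tumors then turned to 0.26 for Myc, 0.17 for Lef1, 0.63 for Tcf7, 0.27 for Sp5, 0.87 for Sox4 and 1.20 for Prox1, and the tumor effect in microRNA minus control mice to 0.39 for Myc, 0.38 for Lef1, 0.95 for Tcf7 and 1.21 for Prox1.

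Between microRNA and control tumors the sign also turned for Prox1 with median scaling (0.0175), on slide 1 alone (0.21) and without the Xist arrays (0.11), for Sox4 without the Xist arrays (0.048), and on slide 2 alone for Myc (0.25) and Sox9 (-0.083). In normal tissue it turned for Sox4 with the mean of all probes (0.12), on slide 2 alone (0.0135) and without the arrays of low Hoxb13 (0.0135), and for Prox1 with the slide as a block (0.25), on slide 2 alone (0.11), with the file number as a block (0.13), without the Xist arrays (0.35) and without the arrays of low Hoxb13 (0.11). For the difference of tumor effects it turned for Tcf7 with quantile scaling (0.026), median scaling (0.17), the percentile over detected probes (0.028), the mean of all probes (0.41) and without the Xist arrays (0.31). It turned for Prox1 after normexp (0.0006), with quantile scaling (0.23) and with median scaling (0.14), for Myc with median scaling (0.13), on slide 2 alone (0.33) and with the file number as a block (0.034), and for Sox4 with the mean of all probes (-0.16), the slide as a block (-0.41), on slide 2 alone (-0.52) and without the arrays of low Hoxb13 (-0.51). Leaving out 1 array gave, in tumors, -0.45 to 0.10 for Myc, -0.48 to 0.31 for Sox4 and -0.33 to 0.22 for Prox1. In normal tissue it gave -0.92 to 0.0135 for Sox4 and -0.38 to 0.35 for Prox1. For the difference of tumor effects it gave -0.32 to 0.23 for Myc, -0.27 to 0.26 for Tcf7, -0.10 to 0.83 for Sox4 and -0.40 to 0.33 for Prox1. The causes were not tested. The settings without the arrays of low Hoxb13, and the pairs and fold ranges with tumors left out, were chosen after seeing the data. Groups of 2 arrays limit every comparison between microRNA and control mice, and Prox1 in normal tissue lay at the background of the arrays.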

Other observations

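Markers of cell types not tied to the 7 genes were read in the same comparison of tumors with normal tissue over both groups of mice, by limma. Over all genes 11.7% were called higher there and 19.7% lower. Of 9 neutrophil and monocyte markers 5 rose and none fell (median 1.61), among them the calprotectin genes S100a8 (5.19) and S100a9 (4.92), the protease gene Mmp9 (4.16) and Cd14 (1.61). Their summed level was 7.93 to 8.25 in tumors and 7.31 to 7.83 in normal tissue. Of 9 fibroblast markers 4 rose and none fell, Col1a1 (2.29), Col1a2 (1.43), Pdgfra (1.15) and Pdgfrb (1.11), with a summed level of 7.13 to 8.32 in tumors and 6.35 to 7.00 in normal tissue. Their mean level overlapped, at 2.31 to 3.53 in tumors and 2.09 to 2.84 in normal tissue.

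Each of the 9 smooth muscle markers was lower (5 without control normal 1), with a summed level of 5.44 to 8.02 in tumors and 8.76 to 10.05 in normal tissue. All 6 measured adipocyte markers fell, with a summed level of 0.54 to 2.94 in tumors and 4.77 to 5.64 in normal tissue. Of 8 enteric neuron and glia markers 6 fell (2 without control normal 1), among them Uchl1 (-2.35), and their summed level was 0.34 to 1.38 in tumors and 1.76 to 3.18 in normal tissue. Of 6 measured tuft cell markers Avil rose (3.08), and Trpm5 (-2.50) and Gfi1b (-1.67) fell. Neither was called lower without control normal 2, and 1 of them was without control normal 1. Of 9 skin and squamous markers 5 fell, with mean levels at or below -3.35 in every tumor and in both normal arrays of microRNA mice, and of 0.67 and -1.08 in the normal arrays of control mice. Of these 9, 2 were called without either of the last 2 arrays. Cdkn1a, which encodes the cell cycle inhibitor p21, fell by 1.03 (SE 0.23, adjusted p = 0.00724).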
